A study of Mus musculus with 18 samples.

Results

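The comparison described here sets mouse retinas taken 7 d after saline was injected beneath them against retinas taken 24 h after the same injection. It uses 3 arrays on each side, 6 of the 18 arrays of the series, and these were chosen by their titles. All 22626 probe sets that are not Affymetrix controls were tested, with no filter on low values. The mice were of the albino strain Balb/cJ, and the 1 uL of saline detached the retina in both groups. The remaining arrays hold saline retinas at 2 h and retinas given 1 uL of saline with 10 uM INS37217, an agonist of the P2Y2 nucleotide receptor, at 2 h, 24 h and 7 d. Per the series' design text, detached retinas had settled back but were still folded at 24 h, and the folds were gone at 7 d while function was incomplete. Every array held RNA pooled from several retinas, and the 3 arrays of a group are described as biological replicates. Untreated retina was not analysed here, so neither group is a baseline, and a gene that is lower at 7 d may still be above its level in an intact retina.

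In a detached retina the photoreceptors lose contact with the pigment epithelium, which renews their visual pigment and takes up their shed outer segment tips. Mueller cells, the glia that span the retina, react with intermediate filament and acute-phase genes and lose some of the genes by which they clear glutamate, potassium and water. Microglia, the resident macrophages, become activated, and cytokines of the gp130 and interferon families act through STAT transcription factors on many of these cells.

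The values are log2 RMA levels, so that a change of 1 is 2-fold. A probe set passed where its adjusted p was under 0.05 in limma, with the replicate number as a block, and "rose" and "fell" are used only of features that passed, higher or lower at 7 d than at 24 h. Changes are given with their standard error (SE) and rest on n = 3 arrays in each group. Array medians were 6.72 to 6.75, and the lower quartile of an array was 5.14 to 5.42, so that folds of probe sets near or under that level are approximate. Defining genes of the labelled tissue were high on every array: Sag, the arrestin of rods, averaged 13.94 at 7 d and 13.85 at 24 h, and Gnat1, rod transducin, 13.24 at 7 d and 13.10 at 24 h. Saline 7 d replicate 2 carries a 2 h source name beside its 7 d title. It correlated at 0.9941 with saline 7 d replicate 3, 0.9598 with replicate 1 and at most 0.979 with a saline 2 h array. Saline 7 d replicate 1 reached 0.9683 within its group and 0.9834 with a saline 2 h array. Correlation alone was not used to fix the time, and the title placed replicate 2 at 7 d. The array closest to replicate 2 was INS37217 7 d replicate 2, at 0.9945. On replicate 2 the lysozyme gene Lyz2 read 9.85, against 9.70 and 9.79 on the other 7 d arrays and a saline 2 h mean of 6.71. Prph2, an outer segment gene, read 7.94 on it, against a saline 2 h mean of 10.08. Among the compared arrays the largest principal component held 66.5% of the variance. It set replicate 1 (-29.7 at 24 h and -57.4 at 7 d) apart from replicates 2 and 3 (12.7 to 28.3). Time followed on the next component (19%), with 24 h at -23 to -12.6 and 7 d at 12.6 to 19. The beta-actin 3' minus 5' signal, a measure of RNA integrity, was 0.65 ± 0.05 at 7 d and 0.61 ± 0.0854 at 24 h (SD, n = 3 each, exact permutation test, two-sided, p = 0.6, where the smallest possible p is 0.1).

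Of the 22626 probe sets, 615 (2.72%) rose and 1053 (4.65%) fell. With a change of at least 2-fold, 36 (0.159%) rose and 105 (0.464%) fell, and the largest folds were 5.59 upward and 5.41 downward. The 36 belonged to 30 named genes. Of the 105, 16 had no single gene and the rest belonged to 79 genes. Among falls of probe sets with a single gene and no overlap between the groups, the largest was 4.96-fold, of Usp18. The 5.41-fold fall lies outside these. The median change over all probe sets was 0.02, and RMA, which gives all arrays nearly the same distribution, keeps that value close to 0. In 1649 of the 1668 probe sets that passed, the difference had the same sign within each of the 3 replicate numbers. The fit with the block favours such probe sets, so this count is a description and lends the calls no support. Without the block, 76 (0.336%) rose and 221 (0.977%) fell, and all 297 of these also passed with it. The count of 1668 fell to 992 without saline 24 h replicate 1, 1066 without 24 h replicate 3, 1041 without 7 d replicate 1 and 963 without 7 d replicate 3. It was 1629 without 7 d replicate 2, whose source name differs from its title. Counted by gene, with each of 12393 genes represented by its probe set of highest mean level, 383 (3.09%) rose and 618 (4.99%) fell with the block, against 57 (0.46%) and 145 (1.17%) without it. The gene lists below are counted in that way, and a number in brackets gives the count without the block where it differs by more than 1.5 times.

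Genes induced by interferon had the lowest median change of the 48 lists. Of 27 measured, 19 fell (12), none rose, and the median change was -0.82, against 0.02 over all genes. The mean level of the list was 6.28 to 6.34 on the 7 d arrays, against 7.14 to 7.22 on the 24 h arrays. In these bulk samples, fewer cells of a type and less RNA per cell cannot be told apart, here and in every group below. Usp18, the protease that removes ISG15 from proteins, read 5.51, 5.43 and 5.54 in the 7 d retinas, against 7.96, 7.94 and 7.51 in the 24 h retinas. The groups were far apart, and it fell by 2.31 (SE 0.14, adjusted p = 7e-10). Irf9 and Stat2 are subunits of ISGF3, the complex through which type I interferon acts. Irf9 read 7.07, 7.16 and 7.01 in the 7 d retinas, against 8.90, 9.65 and 9.03 in the 24 h retinas and fell by 2.11 (SE 0.20, adjusted p = 2.6e-07). Stat2 read 6.58, 6.23 and 6.56 in the 7 d retinas, against 8.46, 8.37 and 8.53 in the 24 h retinas and fell by 2.00 (SE 0.12, adjusted p = 6.9e-10). In both genes the lowest 24 h array lay well above the highest 7 d array. Irf7, the factor that amplifies interferon production, fell by 1.90 (SE 0.11, adjusted p = 3.9e-10).

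Effector genes of the response fell too. Igtp, an interferon-gamma-induced GTPase of the vacuole defence system, read 7.24, 7.23 and 7.08 in the 7 d retinas, against 8.94, 9.17 and 9.32 in the 24 h retinas and fell by 1.96 (SE 0.13, adjusted p = 1.4e-09), and the related Irgm1 fell by 1.74 (SE 0.18, adjusted p = 1.1e-06). These GTPases are close in sequence, so their probe sets may share transcripts. Oasl2, of the 2'-5' oligoadenylate synthetase family, fell by 1.42 (SE 0.11, adjusted p = 2.3e-08), and Ifitm3, which blocks virus entry at membranes, fell by 1.22 (SE 0.11, adjusted p = 9e-08). Bst2, which tethers virus particles to the cell surface, fell by 1.18, Ifit1, which binds foreign RNA ends, by 1.14, and Irf1, an interferon-gamma-induced factor, by 0.82. Among members that did not pass, Zbp1, a sensor of nucleic acid, changed by 0.13 and Oas1a by -0.35. The list's mean over its 27 genes was 6.26 at 2 h, 7.17 at 24 h and 6.31 at 7 d, and Usp18 had averaged 5.44 at 2 h. Outside the list, the interferon-induced Rtp4 fell by 1.82, Parp12 by 1.87, the GTPase Irgm2 by 1.75, Ifitm1 by 1.57 and Trim25, a ubiquitin ligase of the RIG-I pathway, by 1.52.

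The promoters of these genes show what several of them share in sequence. The ISGF3 complex binds the interferon-stimulated response element, whose core was searched as GAAA, any 2 bases and GAAA again, on both strands, overlapping copies included, in RefSeq promoters from 250 bases before to 50 after the start (GRCm38.p6). Of the 19 genes that fell, 16 had a promoter in that table, and 10 of these (62.5%) held the core, as did 12 of the 22 matched genes of the whole list (54.5%). Among all measured genes the share was 380 of 9887 (3.84%). A match is a description of letters and no measure of binding. The following 4 are shown because their genes fell with the list and carry the core close to the start, in capitals.
Igtp, chr11:58199306-58199605, + strand: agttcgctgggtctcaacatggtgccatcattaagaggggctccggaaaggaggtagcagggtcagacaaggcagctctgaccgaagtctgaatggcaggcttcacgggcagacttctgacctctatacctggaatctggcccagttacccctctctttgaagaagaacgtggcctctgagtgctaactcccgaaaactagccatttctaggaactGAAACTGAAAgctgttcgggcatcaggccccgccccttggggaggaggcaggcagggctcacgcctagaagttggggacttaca
Irgm1, chr11:48871371-48871670, - strand: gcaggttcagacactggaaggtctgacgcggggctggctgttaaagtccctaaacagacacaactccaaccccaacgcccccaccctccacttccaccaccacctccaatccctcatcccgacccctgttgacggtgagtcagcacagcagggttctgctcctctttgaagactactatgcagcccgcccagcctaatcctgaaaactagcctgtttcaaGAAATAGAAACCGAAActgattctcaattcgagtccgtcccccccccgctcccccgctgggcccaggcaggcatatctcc
Ifit1, chr19:34640639-34640938, + strand: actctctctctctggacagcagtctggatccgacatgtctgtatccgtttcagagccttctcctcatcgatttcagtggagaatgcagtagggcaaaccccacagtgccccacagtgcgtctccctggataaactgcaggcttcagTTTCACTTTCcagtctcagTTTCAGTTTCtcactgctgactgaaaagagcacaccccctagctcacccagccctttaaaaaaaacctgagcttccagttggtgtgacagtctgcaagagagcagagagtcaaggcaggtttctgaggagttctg
Ifitm3, chr7:141010695-141010994, - strand: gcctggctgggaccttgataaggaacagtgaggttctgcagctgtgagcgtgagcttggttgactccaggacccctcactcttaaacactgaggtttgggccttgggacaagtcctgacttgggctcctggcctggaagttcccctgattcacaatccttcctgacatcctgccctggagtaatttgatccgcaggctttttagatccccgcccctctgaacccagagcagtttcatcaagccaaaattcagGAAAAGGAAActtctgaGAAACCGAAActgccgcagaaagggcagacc

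**Figure D1:**
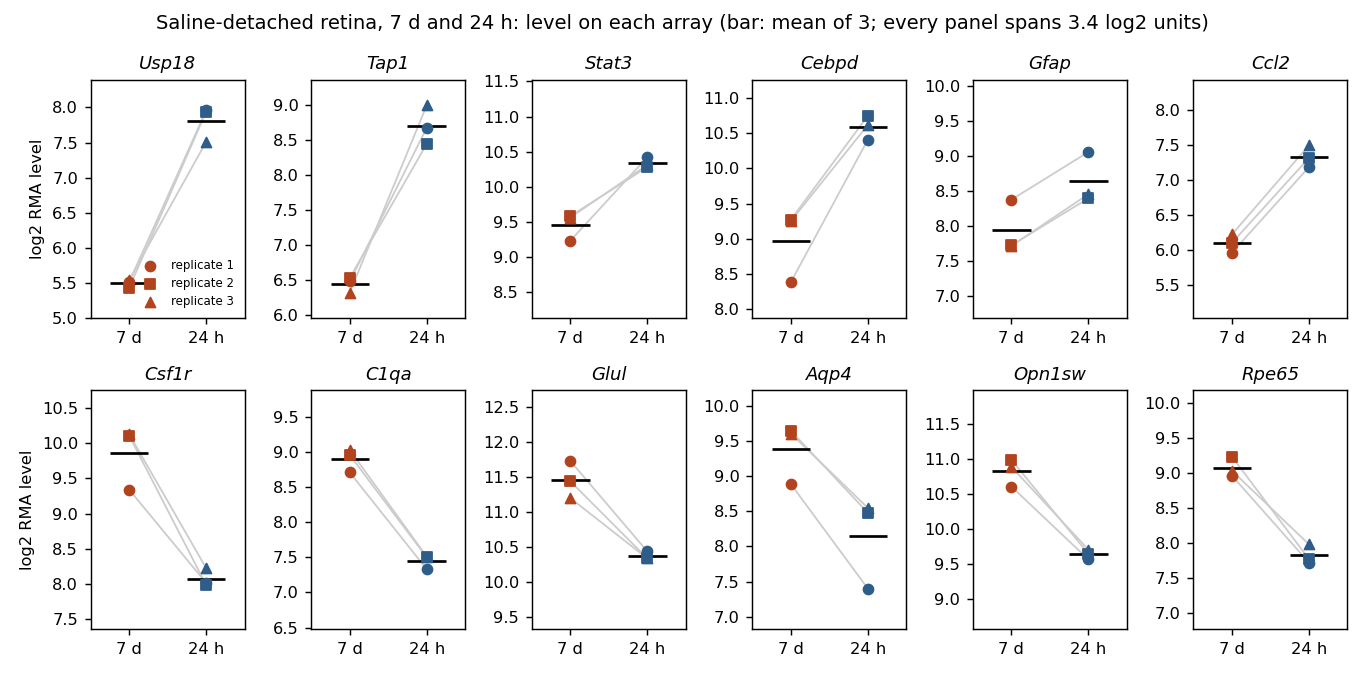
Log2 RMA level of 12 genes on each array, with the 7 d arrays at the left and the 24 h arrays at the right of every panel, grey lines joining equal replicate numbers and black bars for the mean of 3. In the upper row each gene is lower at 7 d on all arrays (Usp18 5.43 to 5.54 at 7 d and 7.51 to 7.96 at 24 h), and in the lower row each is higher (Rpe65 8.96 to 9.23 at 7 d and 7.72 to 7.98 at 24 h). Gfap shows the shift of replicate 1 in both groups.

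Genes of antigen presentation by MHC class I fell as well. Of 11 measured, 7 fell (4) and none rose, with a median change of -0.60. Tap1, a subunit of the transporter that carries peptides into the endoplasmic reticulum, read 6.48, 6.53 and 6.32 in the 7 d retinas, against 8.67, 8.44 and 8.99 in the 24 h retinas and fell by 2.26 (SE 0.15, adjusted p = 1.7e-09). Its brightest probe set is the one given, and its other 3 probe sets changed by -0.52 to 0.01. Psmb9, a peptidase subunit of the immunoproteasome, fell by 1.53 (SE 0.11, adjusted p = 5.3e-09), and H2-D1, a class I heavy chain, fell by 1.16 (SE 0.11, adjusted p = 5.7e-07). Class I heavy chains are near-identical in parts, so a probe set of one can bind another. B2m, the light chain, stood at 0.23 (SE 0.11, adjusted p = 0.24) and H2-K1 at -0.24 (SE 0.10, adjusted p = 0.15). In the constitutive proteasome, of 31 measured genes 1 fell (0), Psma3, by 0.42, and the median change was -0.12. MHC class II genes went the other way where they passed. Ctss, the protease that trims the class II invariant chain, read 9.02, 10.05 and 9.53 in the 7 d retinas, against 7.85, 8.19 and 7.89 in the 24 h retinas and rose by 1.56 (SE 0.15, adjusted p = 2.8e-07), and H2-Aa, a class II chain, rose by 0.48 (SE 0.11, adjusted p = 0.01, and 0.17 without the block). The other 6 of the 8 class II genes did not pass.

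Most reactive glia genes fell, the largest share of any of the 48 lists. Of 23 measured, 18 fell, none rose, and the median change was -0.78, with 12 lower without the block. Lcn2, the acute-phase lipocalin of reactive astrocytes that neutrophils also make, read 8.61, 8.67 and 8.73 in the 7 d retinas, against 10.45, 10.47 and 10.59 in the 24 h retinas and fell by 1.83 (SE 0.11, adjusted p = 3.1e-10). Serpina3n, a protease inhibitor of reactive astroglia, read 9.26, 8.79 and 8.89 in the 7 d retinas, against 11.02, 10.72 and 10.60 in the 24 h retinas and fell by 1.80 (SE 0.11, adjusted p = 5.7e-10). Neither gene had overlapping groups. Vim, the intermediate filament vimentin, fell by 0.78 (SE 0.10, adjusted p = 1.2e-05), and Cd44, a hyaluronan receptor, fell by 0.78 (SE 0.10, adjusted p = 1.2e-05, and 0.052 without the block). Gfap, the filament protein by which reactive Mueller cells are recognised, read 8.38, 7.73 and 7.72 in the 7 d retinas, against 9.06, 8.40 and 8.46 in the 24 h retinas and fell by 0.70 (SE 0.11, adjusted p = 0.00016, and 0.58 without the block). Replicate 1 stood above the other arrays of its group at both times, so that the lowest 24 h array is only just above the highest 7 d array. A second Gfap probe set changed by -0.76.

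Both an endothelin and its receptor fell. Edn2, the endothelin that injured photoreceptors release, read 9.03, 9.24 and 9.01 in the 7 d retinas, against 10.31, 9.96 and 10.13 in the 24 h retinas and fell by 1.04 (SE 0.12, adjusted p = 2.9e-06). It had averaged 6.72 at 2 h, so that both later groups lay above the 2 h level. Ednrb, the endothelin receptor of Mueller cells, fell by 0.93 (SE 0.17, adjusted p = 0.0015). Fgf2, a survival factor for photoreceptors, stood at -0.71 (SE 0.23, adjusted p = 0.07), and its groups overlapped. Chil1, a secreted chitinase-like protein, fell by 1.26 (SE 0.11, adjusted p = 1e-07), and Timp1, which inhibits metalloproteinases, fell by 1.36 (SE 0.12, adjusted p = 1.4e-07). The reactive glia list averaged 7.80 at 2 h, 8.92 at 24 h and 8.0 at 7 d. Its members Nes, the filament protein nestin, and S1pr3, a sphingosine phosphate receptor, did not pass, at -0.03 and -0.46.

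Of 18 measured genes of the gp130 and STAT3 pathway, 6 fell (3) and 1 rose (0), with a median of -0.28. None of its 4 measured cytokines passed, and Lif, Clcf1, Il6 and Il11 changed by -0.09, -0.26, 0.06 and 0.13. Among receptors, Il6st, gp130 itself, fell by 0.86 (SE 0.11, adjusted p = 3.1e-05, and 0.13 without the block) and Osmr, the oncostatin M receptor, fell by 0.78 (SE 0.13, adjusted p = 0.00037, and 0.38 without the block), whereas Cntfr, the alpha receptor of ciliary neurotrophic factor, rose by 0.63 (SE 0.12, adjusted p = 0.0021, and 0.82 without the block). Stat3 read 9.23, 9.58 and 9.56 in the 7 d retinas, against 10.42, 10.28 and 10.31 in the 24 h retinas and fell by 0.88 (SE 0.10, adjusted p = 5.5e-06). Socs3, the feedback inhibitor that STAT3 induces, read 7.19, 7.62 and 7.52 in the 7 d retinas, against 8.52, 8.99 and 8.81 in the 24 h retinas and fell by 1.33 (SE 0.10, adjusted p = 1.1e-08). Cebpd, a C/EBP factor outside the list that STAT3 also induces, read 8.38, 9.27 and 9.25 in the 7 d retinas, against 10.41, 10.75 and 10.62 in the 24 h retinas and fell by 1.63 (SE 0.12, adjusted p = 1.2e-08). For each of these 3 genes the groups were apart, with replicate 1 lowest at 7 d.

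**Figure D2:**
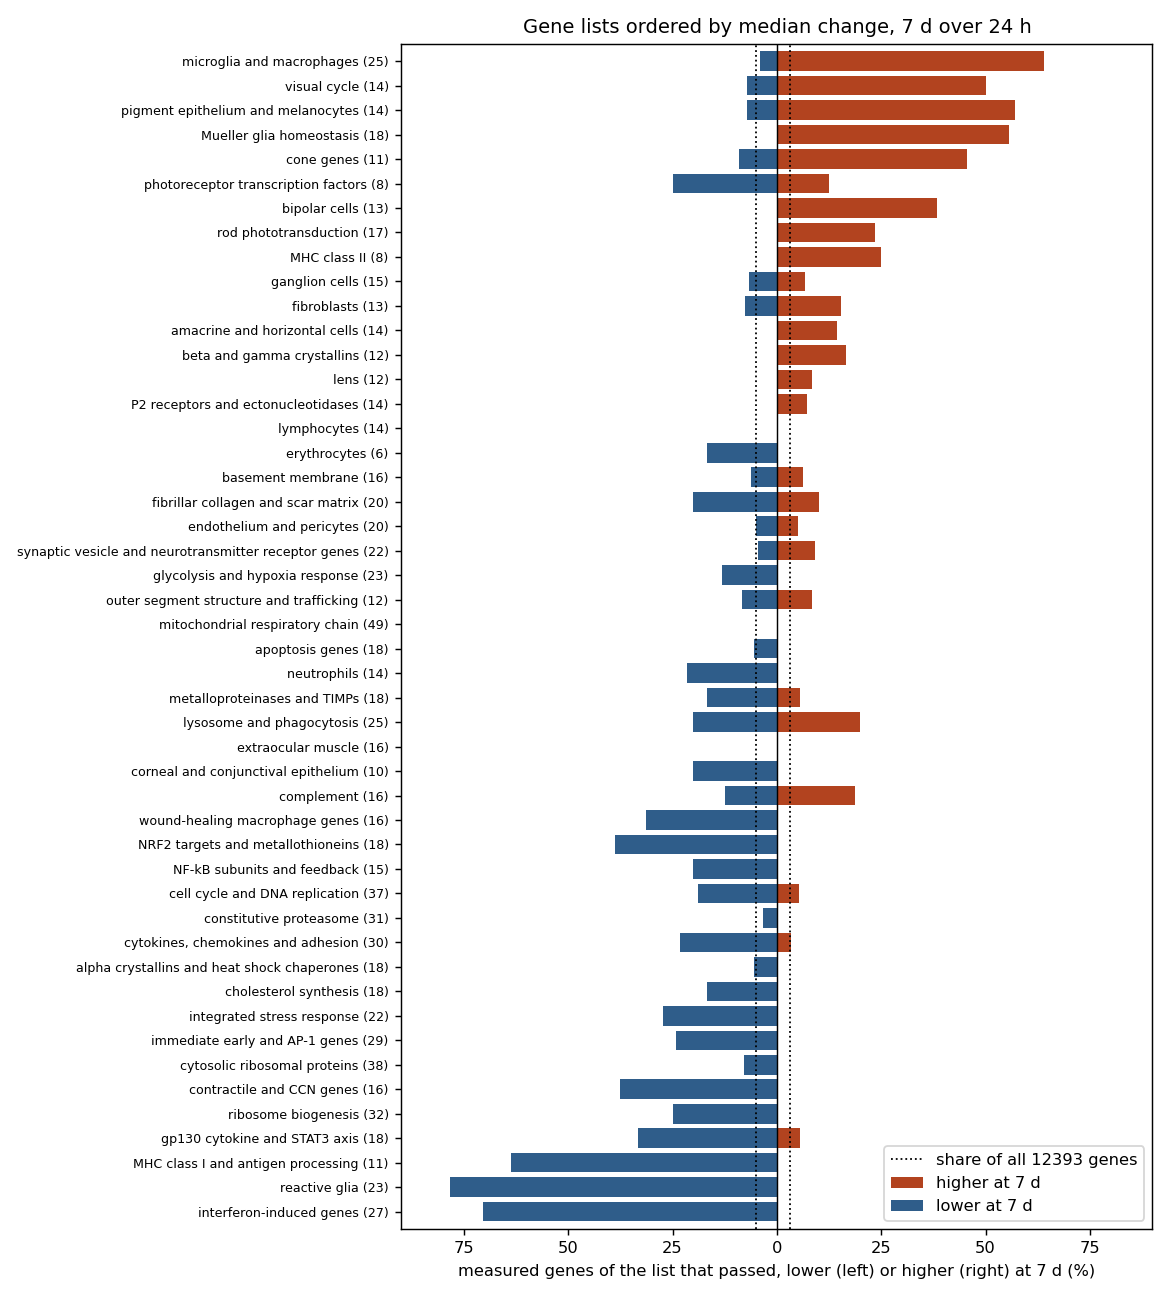
Share of the measured genes of each of 48 lists that passed, in percent, lower at 7 d to the left and higher at 7 d to the right, with the lists ordered by their median change and the number of measured genes in brackets. Dotted lines mark the shares over all 12393 genes, 4.99% lower and 3.09% higher. Interferon-induced, reactive glia and MHC class I lists are at the bottom, and microglia, visual cycle, pigment epithelium and Mueller glia lists at the top.

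Some immediate early genes fell further after 24 h. Of 29 measured, 7 fell (4) and none rose, with a median of -0.21, and the list averaged 8.69 at 2 h, 7.36 at 24 h and 7.10 at 7 d. Atf3, a stress-induced factor, read 7.37, 7.68 and 7.73 in the 7 d retinas, against 8.93, 8.99 and 9.05 in the 24 h retinas and fell by 1.40 (SE 0.09, adjusted p = 2.1e-09). Junb, a subunit of AP-1, fell by 1.51 (SE 0.12, adjusted p = 2e-08), and Jun, another subunit, fell by 1.20 (SE 0.11, adjusted p = 3.5e-07). Fos, their partner, fell by 0.48 (SE 0.11, adjusted p = 0.0093, and 0.42 without the block), and Myc, a growth regulator, fell by 0.66 (SE 0.12, adjusted p = 0.0011). Egr1, which neurons switch on with activity, stood at -0.37 (SE 0.12, adjusted p = 0.069). Among the 15 NF-kB subunits and feedback genes, 3 fell (0): Rela, a subunit, by 0.54, Nfkbiz, an atypical inhibitor, by 0.61, and the kinase Ikbkb by 0.33. Nfkbia, the classical feedback inhibitor, stood at -0.13 (SE 0.09, adjusted p = 0.46).

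Stress genes showed smaller falls. Mt2 and Mt1, the metal-binding metallothioneins, fell by 0.99 and 0.69. They belong to a list of 18 NRF2 targets and metallothioneins in which 7 fell, Hmox1, heme oxygenase, by 0.49 and Txnrd1, thioredoxin reductase, by 0.51. Its median was -0.06, and 2 passed without the block. In the integrated stress response 6 of 22 fell, among them its central factor Atf4, which fell by 0.66 (SE 0.09, adjusted p = 5.1e-05), and Ddit3, also known as CHOP, which fell by 0.41 (SE 0.09, adjusted p = 0.0073, and 0.84 without the block). Chac1 and Trib3, targets of the same pathway, stood at 0.09 and 0.00. Of 18 alpha crystallins and heat shock chaperones 1 fell (0), Dnajb1 by 0.59. Of 18 apoptosis genes 1 fell (0), the survival gene Mcl1, by 0.37.

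Of 30 cytokine, chemokine and adhesion genes, 7 fell (4) and 1 rose (0), with a median of -0.16. Ccl2, the main monocyte attractant, read 5.96, 6.10 and 6.22 in the 7 d retinas, against 7.18, 7.31 and 7.49 in the 24 h retinas and fell by 1.23 (SE 0.12, adjusted p = 2.9e-07). It had averaged 8.88 at 2 h. Ccl12, which binds the same receptor in mice, fell by 1.02 (SE 0.15, adjusted p = 8.7e-05), and Ccl6 read 5.30, 5.58 and 5.59 in the 7 d retinas, against 6.32, 7.72 and 7.05 in the 24 h retinas and fell by 1.54 (SE 0.19, adjusted p = 1.2e-05). Cxcl12, which guides cells through CXCR4, fell by 0.72 (SE 0.15, adjusted p = 0.0039, and 0.37 without the block), and Cxcl16, a membrane-bound chemokine, rose by 0.45 (SE 0.10, adjusted p = 0.0095, and 0.11 without the block). Tnf and Il1b, master cytokines of inflammation, stood at 0.05 (SE 0.10, adjusted p = 0.82) and -0.28 (SE 0.16, adjusted p = 0.33).

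The neutrophil list gave a split picture. S100a9, a calcium-binding alarmin abundant in neutrophils, read 5.27, 4.89 and 5.07 in the 7 d retinas, against 6.80, 7.44 and 7.78 in the 24 h retinas and fell by 2.26 (SE 0.22, adjusted p = 3.4e-07). Its partner S100a8 read 4.59, 4.31 and 4.66 in the 7 d retinas, against 5.74, 6.56 and 6.68 in the 24 h retinas and fell by 1.81 (SE 0.22, adjusted p = 1.1e-05). Their 7 d levels were at or under the lower quartile of the arrays. Besides these and Lcn2, the other 11 of the 14 neutrophil genes did not pass: Mpo and Elane, proteins of the granules, stood at 0.15 and 0.28. The mean of the list was 5.73 to 6.32 on the 7 d arrays, against 6.20 to 6.46 on the 24 h arrays. Of 16 genes of wound-healing macrophages 5 fell (3). Lgals3, the lectin galectin-3, read 8.42, 9.17 and 9.18 in the 7 d retinas, against 9.90, 10.28 and 10.38 in the 24 h retinas and fell by 1.26 (SE 0.12, adjusted p = 2e-07), and Arg1, arginase, fell by 1.22 (SE 0.30, adjusted p = 0.013, and 0.4 without the block). Cd163, a scavenger receptor, stood at 0.12.

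Many genes of microglia and macrophages were higher at 7 d. Of 25 measured, 16 rose, 1 fell, and the median change was 0.54, with 8 higher without the block. The mean of the list was 6.84 to 6.98 on the 7 d arrays, against 6.23 to 6.32 on the 24 h arrays. Lyz2, lysozyme of myeloid cells, read 9.70, 9.85 and 9.79 in the 7 d retinas, against 7.56, 7.60 and 7.81 in the 24 h retinas and rose by 2.12 (SE 0.13, adjusted p = 7.5e-10), 4.36-fold. Lyz1, a near-identical gene whose probe sets may share its transcripts, rose by 2.09 (SE 0.11, adjusted p = 1.6e-10). Csf1r, the growth factor receptor on which microglia depend, read 9.34, 10.11 and 10.13 in the 7 d retinas, against 8.01, 7.98 and 8.22 in the 24 h retinas and rose by 1.79 (SE 0.14, adjusted p = 2.7e-08). Its other 2 probe sets changed by 0.63 and 1.04. P2ry12, the nucleotide receptor of resting microglia, read 5.78, 6.22 and 6.32 in the 7 d retinas, against 4.65, 4.37 and 4.41 in the 24 h retinas and rose by 1.63 (SE 0.16, adjusted p = 5.1e-07). Its 24 h levels were under the lower quartile, so the size of that change is approximate. Cx3cr1, the fractalkine receptor, rose by 0.52 (SE 0.11, adjusted p = 0.0046, and 0.38 without the block), Tmem119, a marker of resident microglia, rose by 0.59 (SE 0.17, adjusted p = 0.033, and 0.77 without the block), and Adgre1, a macrophage surface antigen, rose by 0.54 (SE 0.10, adjusted p = 0.0013, and 0.3 without the block).

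The microglial genes that rose include the complement initiator and a phagocytic receptor pair. C1qa, a chain of C1q, read 8.71, 8.96 and 9.03 in the 7 d retinas, against 7.33, 7.50 and 7.51 in the 24 h retinas and rose by 1.45 (SE 0.13, adjusted p = 1.2e-07). C1qc, another chain, read 8.22, 8.25 and 8.16 in the 7 d retinas, against 7.09, 6.65 and 6.63 in the 24 h retinas and rose by 1.42 (SE 0.11, adjusted p = 1.2e-08). C1qb, the remaining chain, rose by 0.49 (SE 0.11, adjusted p = 0.0075, and 0.077 without the block) on its brightest probe set, and its others changed by 1.13 and 1.48. Trem2, a lipid receptor of phagocytes, rose by 0.96 (SE 0.12, adjusted p = 1.2e-05), and Tyrobp, its signalling adaptor, rose by 1.24 (SE 0.19, adjusted p = 0.00019). Not every gene of these cells moved upward. Cd14, the co-receptor for endotoxin, fell by 0.47 (SE 0.11, adjusted p = 0.012, and 0.068 without the block), while Itgam, Ptprc and Cd68, a surface integrin, the leukocyte phosphatase CD45 and a lysosomal glycoprotein, stood at 0.01, -0.02 and -0.12. The microglia list averaged 6.01 at 2 h, 6.27 at 24 h and 6.92 at 7 d. Markers of lymphocytes did not pass in any of 14 genes, with 0 higher, 0 lower and a list mean of 5.09 to 5.69 on the 7 d arrays, against 5.10 to 5.45 on the 24 h arrays.

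Other complement and lysosome genes did not share one direction. Beyond C1q, C1ra, the first protease of the cascade, fell by 0.50 (SE 0.11, adjusted p = 0.0053) and Cfb, factor B of the alternative route, fell by 0.54 (SE 0.15, adjusted p = 0.032, and 0.23 without the block), and 11 of 16 complement genes did not pass. In the lysosome and phagocytosis list 5 rose (3) and 5 fell of 25. Ctsd, a lysosomal protease, rose by 0.49 (SE 0.09, adjusted p = 0.0015, and 0.66 without the block) and Mertk, the receptor with which pigment epithelium and macrophages take up outer segments and dying cells, rose by 0.38 (SE 0.10, adjusted p = 0.027, and 0.18 without the block). Axl, a receptor of the same family, read 7.22, 7.32 and 7.33 in the 7 d retinas, against 8.43, 8.12 and 8.17 in the 24 h retinas and fell by 0.95 (SE 0.10, adjusted p = 1.3e-06). Gpnmb, a glycoprotein of lipid-laden phagocytes and melanosomes, fell by 0.60 (SE 0.09, adjusted p = 2e-04).

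Homeostatic genes of Mueller glia were higher at 7 d. Of 18 measured, 10 rose and 0 fell, with a median of 0.38. Without the block 4 were higher. Glul, glutamine synthetase, which disposes of the glutamate taken up by these cells, read 11.73, 11.44 and 11.20 in the 7 d retinas, against 10.44, 10.34 and 10.34 in the 24 h retinas and rose by 1.08 (SE 0.13, adjusted p = 1.2e-05). A second Glul probe set changed by 1.32. Aqp4, the water channel of Mueller end feet, read 8.89, 9.65 and 9.61 in the 7 d retinas, against 7.40, 8.48 and 8.55 in the 24 h retinas and rose by 1.24 (SE 0.12, adjusted p = 5.2e-07, and 0.086 without the block). Replicate 1 was the lowest array of both groups, and each replicate number was higher at 7 d. Car14, a membrane carbonic anhydrase, read 9.52, 10.07 and 9.81 in the 7 d retinas, against 8.33, 8.50 and 8.60 in the 24 h retinas and rose by 1.32 (SE 0.11, adjusted p = 8.4e-08). Apoe, a lipid carrier made by Mueller cells and microglia, rose by 1.35 (SE 0.09, adjusted p = 3.7e-09), Gpr37, a receptor of glia, rose by 0.98 (SE 0.11, adjusted p = 1.9e-06, and 0.3 without the block), and Rlbp1, the retinaldehyde-binding protein of Mueller cells and pigment epithelium, rose by 1.08 (SE 0.10, adjusted p = 2.1e-07). Other pillars of Mueller function did not pass: Kcnj10, the potassium channel Kir4.1, stood at 0.09 (SE 0.10, adjusted p = 0.66) and Slc1a3, the glutamate transporter GLAST, at -0.09 (SE 0.10, adjusted p = 0.62). The list averaged 9.50 at 2 h, 9.26 at 24 h and 9.78 at 7 d, and Glul, at 11.64 at 2 h, was near its 7 d level at that time.

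**Figure D3:**
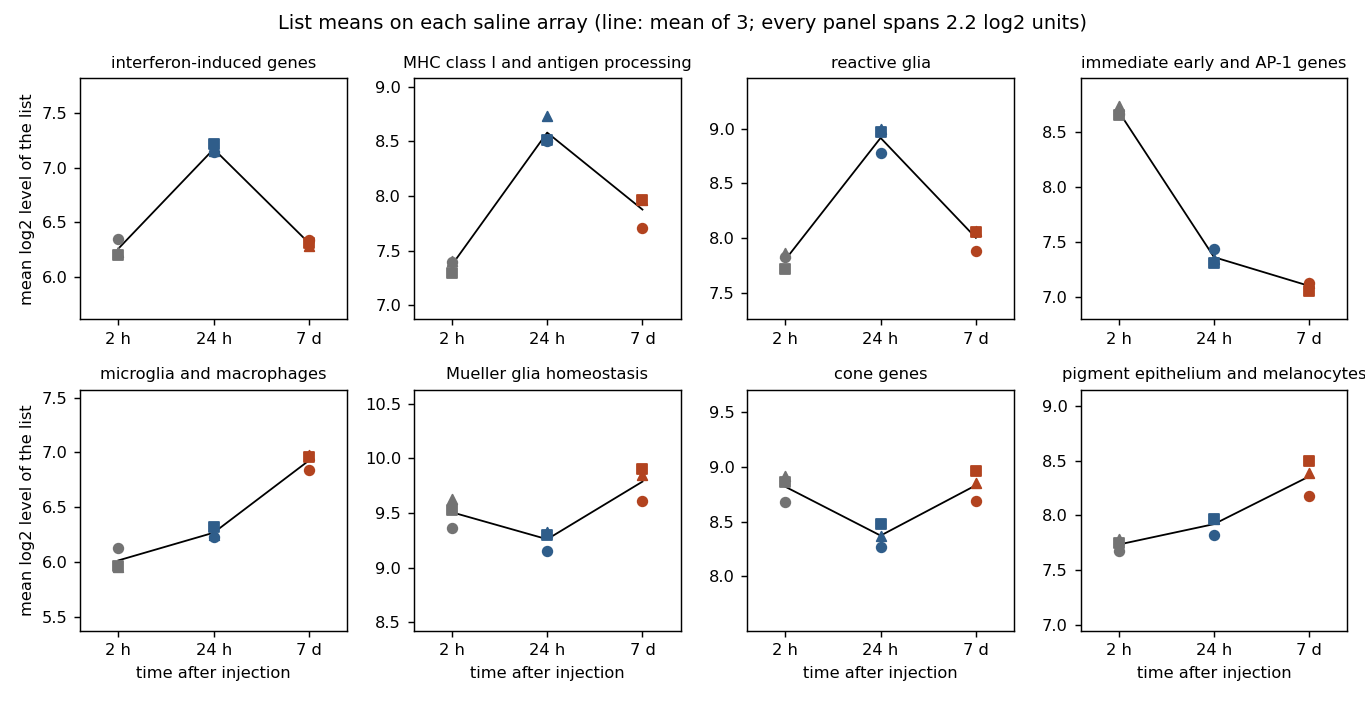
Mean log2 level of 8 gene lists on each saline array at 2 h, 24 h and 7 d after injection, with 1 marker for each replicate and a line through the means of 3. Interferon-induced, MHC class I and reactive glia lists peak at 24 h (interferon-induced 6.26, 7.17 and 6.31), cone and Mueller glia lists are lowest at 24 h, and microglia and pigment epithelium lists are highest at 7 d.

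Several cone genes were higher at 7 d. Of 11 cone genes 5 rose and 1 fell (0), with a median of 0.35. Opn1sw, the short-wavelength opsin, read 10.61, 10.99 and 10.89 in the 7 d retinas, against 9.57, 9.65 and 9.71 in the 24 h retinas and rose by 1.19 (SE 0.11, adjusted p = 2.1e-07), and Opn1mw, the middle-wavelength opsin, rose by 0.74 (SE 0.09, adjusted p = 1.5e-05). Gnat2, cone transducin, read 9.94, 10.26 and 10.36 in the 7 d retinas, against 9.12, 9.54 and 9.57 in the 24 h retinas and rose by 0.78 (SE 0.08, adjusted p = 1.9e-06). Kcne2, a potassium channel subunit found in cones, rose by 1.20 (SE 0.09, adjusted p = 6.7e-09). In contrast Gnb3, the beta subunit of cone transducin, fell by 0.38 (SE 0.10, adjusted p = 0.027, and 0.58 without the block), and Arr3, the arrestin of cones, was at 0.18 (SE 0.11, adjusted p = 0.37). Opn1sw had averaged 11.20 and Gnat2 10.28 at 2 h, and the cone list averaged 8.82 at 2 h, 8.37 at 24 h and 8.83 at 7 d.

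Of 17 rod phototransduction genes, 4 rose and none fell, with a median of 0.23, and none passed without the block. Cnga1, the rod cyclic nucleotide-gated channel, read 11.65, 11.80 and 11.71 in the 7 d retinas, against 10.96, 11.15 and 11.27 in the 24 h retinas and rose by 0.59 (SE 0.10, adjusted p = 0.00075, and 0.054 without the block), and Guca1a, a calcium sensor that drives guanylate cyclase in rods and cones, rose by 0.45 (SE 0.09, adjusted p = 0.0021, and 0.35 without the block). Pde6g, the inhibitory subunit of the phosphodiesterase, rose by 0.39 (SE 0.09, adjusted p = 0.0056, and 0.089 without the block), and Cngb1, the second channel subunit, rose by 0.42 (SE 0.09, adjusted p = 0.0044, and 0.054 without the block). Sag and Gnat1 stood at 0.09 and 0.14. The mean of the list was 11.21 to 11.28 on the 7 d arrays, against 11.01 to 11.03 on the 24 h arrays. Prph2, the rim protein that shapes outer segment discs, did not follow: it read 7.44, 7.94 and 7.94 in the 7 d retinas, against 8.11, 7.73 and 8.13 in the 24 h retinas, with overlapping groups, and changed by -0.22 (SE 0.14, adjusted p = 0.37). Its 2 h mean was 10.08. Of 12 outer segment genes 1 rose (0), Cdhr1, a cadherin of new discs, by 0.36, and 1 fell (0), the kinase Mak, by 0.47. Among 8 photoreceptor transcription factors Rorb rose by 0.34, Neurod1 fell by 0.48 and Esrrb by 0.44, none of them past the threshold without the block, and Crx and Nrl, the master regulators of photoreceptors and of rods, stood at 0.21 and 0.31.

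The homeodomain factor CRX binds TAATCC near many photoreceptor genes. Of the 28 rod and cone genes measured, 20 had a RefSeq promoter, and 8 of these (40.0%) held TAATCC on either strand, as did 4 of the 8 matched genes that rose (50.0%), against 707 of 9887 measured genes (7.15%). A cone and a rod and cone gene that rose are shown in GRCm38.p6, with the motif or its reverse complement in capitals.
Gnat2, chr3:108092816-108093115, + strand: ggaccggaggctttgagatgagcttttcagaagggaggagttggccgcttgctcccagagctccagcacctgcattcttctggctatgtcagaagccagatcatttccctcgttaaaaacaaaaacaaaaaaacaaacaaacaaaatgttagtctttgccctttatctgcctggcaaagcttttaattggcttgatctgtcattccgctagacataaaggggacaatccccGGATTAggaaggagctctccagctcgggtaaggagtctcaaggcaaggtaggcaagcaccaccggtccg
Guca1a, chr17:47400557-47400856, - strand: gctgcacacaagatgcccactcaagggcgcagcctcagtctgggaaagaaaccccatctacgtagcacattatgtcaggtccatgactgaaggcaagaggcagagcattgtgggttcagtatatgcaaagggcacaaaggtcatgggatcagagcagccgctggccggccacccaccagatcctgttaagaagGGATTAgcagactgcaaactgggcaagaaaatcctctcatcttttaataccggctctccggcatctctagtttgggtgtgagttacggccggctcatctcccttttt

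The visual cycle and the pigment epithelium moved in the same direction as the cones. Rpe65, the isomerase that regenerates the chromophore, read 8.96, 9.23 and 9.03 in the 7 d retinas, against 7.72, 7.77 and 7.98 in the 24 h retinas and rose by 1.25 (SE 0.10, adjusted p = 5.7e-08). Ttr, a carrier of retinol with its binding protein, rose by 0.84 (SE 0.10, adjusted p = 8.2e-06, and 0.33 without the block), Rgr, an opsin of pigment epithelium and Mueller cells, rose by 0.94 (SE 0.10, adjusted p = 2.8e-06, and 0.32 without the block), and Rdh5, a retinol dehydrogenase, rose by 0.68 (SE 0.12, adjusted p = 0.00073, and 0.05 without the block). Of 14 visual cycle genes 7 rose (3), and Rbp4, plasma retinol-binding protein, fell by 0.79 (SE 0.11, adjusted p = 4.6e-05, and 0.05 without the block). The median was 0.47. The pigment epithelium list shares Rpe65, Rgr, Ttr and Lrat with the visual cycle list. It had 8 of 14 genes higher and 1 lower, with a median of 0.45, and 1 higher without the block. Its melanin genes Tyr, Tyrp1 and Dct rose by 0.77, 0.66 and 0.48. Replicate 1 was lowest on both sides, the list mean being 8.18 to 8.50 on the 7 d arrays, against 7.82 to 7.97 on the 24 h arrays. Pmel, the fibril protein of melanosomes, stood at 0.18 (SE 0.11, adjusted p = 0.38). Pigment epithelium is a neighbouring layer, and how much of it came away with each retina was not measured.

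Of 13 bipolar cell genes 5 rose and none fell, all of them only with the block, with a median of 0.27. Pcp2, a G-protein regulator of rod bipolar cells, rose by 0.53 (SE 0.11, adjusted p = 0.0035, and 0.4 without the block), and Scgn, a calcium-binding protein of cone bipolar cells, rose by 0.53 (SE 0.09, adjusted p = 0.00064, and 0.079 without the block). Among 14 amacrine and horizontal cell genes 2 rose (0), Calb1, the calcium buffer of horizontal cells, by 0.42. Of 15 ganglion cell genes 1 fell (0), Gap43, a protein of growing axons, by 0.57, and 1 rose (0), Isl1, a factor also listed under bipolar cells. In the synaptic list 19 of 22 did not pass. Gria1, an AMPA receptor subunit, read 6.44, 7.02 and 6.76 in the 7 d retinas, against 7.53, 7.67 and 7.55 in the 24 h retinas and fell by 0.84 (SE 0.11, adjusted p = 2.5e-05), while Gria4, another, rose by 0.53 (SE 0.14, adjusted p = 0.018, and 0.36 without the block). P2ry2, the receptor that INS37217 targets, stood at 0.06 (SE 0.10, adjusted p = 0.78) near the lower quartile. Of 14 P2 receptors and ectonucleotidases 1 rose, P2ry12, given above.

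Matrix genes were mixed and contractile genes lower. Of 20 collagen and scar matrix genes 2 rose (1) and 4 fell (2), with a median of 0.08. Col3a1, a fibrillar collagen, read 5.58, 5.58 and 5.72 in the 7 d retinas, against 6.45, 6.76 and 6.63 in the 24 h retinas and fell by 0.99 (SE 0.16, adjusted p = 0.00046). Tgfbi, a matrix protein induced by TGF-beta, fell by 0.85 (SE 0.23, adjusted p = 0.028, and 0.5 without the block) on its brightest probe set, and its other 3 changed by -1.88 to -1.45. Fn1, fibronectin, fell by 0.58 (SE 0.10, adjusted p = 4e-04), and Thbs1, thrombospondin, rose by 0.62 (SE 0.10, adjusted p = 0.00034). Mmp3, a matrix protease, fell by 1.36 (SE 0.19, adjusted p = 4.8e-05), and Timp3, a metalloproteinase inhibitor of Bruch's membrane, rose by 0.52 (SE 0.10, adjusted p = 0.0015). Of 16 contractile and CCN genes 6 fell, 1 of them also without the block. Flna, a filamin that links actin to the membrane, fell by 0.79 (SE 0.10, adjusted p = 1.1e-05), and Tagln, an actin-binding protein of smooth muscle, fell by 0.84 (SE 0.11, adjusted p = 1.4e-05, and 0.068 without the block). Col4a3, a basement membrane collagen, rose by 0.67 (SE 0.11, adjusted p = 0.00051), and of 16 basement membrane genes 14 did not pass.

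The gene with the largest rise was Spc25, known as a subunit of the kinetochore, and cell cycle genes as a list did not rise with it. It read 9.86, 10.43 and 10.15 in the 7 d retinas, against 7.54, 7.84 and 7.61 in the 24 h retinas and rose by 2.48 (SE 0.10, adjusted p = 2.6e-12), 5.59-fold. Its 2 h mean was 10.86, so that both later groups lay below the 2 h level. A second probe set rose by 0.78. Ndc80 and Nuf2, the other kinetochore subunits listed, stood at 0.15 and 0.08, under the lower quartile. Of 37 cell cycle genes 2 rose and 7 fell (1), with a median of -0.09. Bub1b, a spindle checkpoint kinase, rose by 0.55 (SE 0.10, adjusted p = 0.001), while Top2a, a topoisomerase of dividing cells, fell by 0.87 (SE 0.13, adjusted p = 0.00011) and Mcm4, of the replicative helicase, fell by 0.60 (SE 0.15, adjusted p = 0.017, and 0.17 without the block). Mcm5, Mcm6 and Mcm7, of the same helicase, fell by 0.54, 0.44 and 0.54.

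Shifts in growth and energy genes were small. Of 32 ribosome biogenesis genes 8 fell and none rose, with a median of -0.27, and none passed without the block. Ddx21, a nucleolar helicase, fell by 0.53 (SE 0.10, adjusted p = 0.0019, and 0.62 without the block). Of 38 ribosomal protein genes 3 fell (0), Rplp0 by 0.55, with a median of -0.21, and the means overlapped between groups, at 10.55 to 10.87 on the 7 d arrays, against 10.82 to 11.09 on the 24 h arrays. In the cholesterol pathway 3 of 18 fell (0), Ebp, a sterol isomerase, by 0.63. None of 49 respiratory chain genes passed, with a median of 0.05. Of 23 glycolysis and hypoxia genes 3 fell (0), Hk2, the hexokinase of photoreceptors, by 0.40.

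Markers of tissues next to the retina were read for what each pool could hold besides retina. Of 12 lens genes 1 rose (0), Crygd, a crystallin of lens fibres, by 0.40, and the list mean was 10.22 to 10.24 on the 7 d arrays, against 9.97 to 10.11 on the 24 h arrays. Mip, the lens fibre water channel, stood at 0.40 (SE 0.14, adjusted p = 0.078), Cryaa at -0.10 (SE 0.09, adjusted p = 0.54) and Cryab, a crystallin that also acts as a chaperone in retina, at -0.06 (SE 0.09, adjusted p = 0.75). In an overlapping list of 12 beta and gamma crystallins, another crystallin besides Crygd rose, by 0.62 (SE 0.14, adjusted p = 0.0065, and 0.12 without the block). Crystallins are close in sequence and may share probe sets. Of 13 fibroblast genes 2 rose (0), Fap, a surface protease of activated fibroblasts, by 0.78 and Dcn, the proteoglycan decorin, by 0.58, and Col3a1 fell. Among 10 genes of corneal and conjunctival epithelium Krt12, the keratin of corneal epithelium, fell by 0.80 (SE 0.12, adjusted p = 9.4e-05) and Aldh3a1, an abundant corneal enzyme, fell by 0.90 (SE 0.11, adjusted p = 1e-05). Extraocular muscle markers were near the lower quartile, with a mean of 4.93 to 5.09 on the 7 d arrays, against 4.93 to 5.04 on the 24 h arrays, and none of 16 passed. Alas2, the erythroid enzyme of heme synthesis, fell by 1.03 (SE 0.12, adjusted p = 3.8e-06), the single one of 6 erythrocyte genes to pass. Of 20 endothelial and pericyte genes 18 did not pass. The part of these tissues in the results above was not tested.

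Some of the 20 largest changes in each direction lie outside all lists. Among rises, Slc6a20a, a carrier of proline and related imino acids, rose by 1.22 (SE 0.17, adjusted p = 4.6e-05), and Upk3b, a uroplakin known from mesothelium and urothelium, rose by 1.17 (SE 0.13, adjusted p = 5e-06). Among falls, Gcg, which encodes proglucagon, read 4.27, 4.34 and 4.07 in the 7 d retinas, against 5.69, 6.36 and 6.63 in the 24 h retinas and fell by 2.00 (SE 0.16, adjusted p = 2.5e-08). Its 2 h mean was 4.11, and at both 2 h and 7 d it lay under the lower quartile. Tnnt2, troponin T of heart muscle, fell by 1.56 (SE 0.17, adjusted p = 2.3e-06) on the probe set of largest change and fell by 0.99 on its brightest one. On the former its 7 d mean was 3.92, and Slc6a20a averaged 4.35 at 24 h. Both means were under the lower quartile, so these folds are approximate.

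The same interval was measured in INS37217 retinas on separate arrays. Of the 12393 genes, 506 (4.08%) rose and 552 (4.45%) fell between 24 h and 7 d there. Across the 22626 probe sets the INS37217 and saline changes correlated at 0.701 as a description, the points sharing the array design and the replicate numbers of the block. Of the 141 probe sets that changed at least 2-fold in saline, 139 had the same sign with INS37217 and 135 also passed in that direction. The difference between the changes passed for 62 probe sets (0.274%), 40 more positive and 22 more negative with INS37217, and for 9 without the block. As examples, Csf1r, Glul, Opn1sw and Rpe65, which rose by 1.79, 1.08, 1.19 and 1.25 in saline, changed by 1.53, 1.07, 1.61 and 1.16 with INS37217, and none of these differences passed.

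Some collagen and other matrix genes differed between the treatments. Col1a1, the main fibrillar collagen, changed by 2.25 in INS37217 retinas and -0.11 in saline retinas, a difference of 2.36 (SE 0.16, adjusted p = 4.5e-08) on the probe set that passed. Its other and brighter probe set changed by 0.74 in INS37217 retinas and 0.22 in saline retinas, a difference of 0.53 (SE 0.21, adjusted p = 0.64), which did not pass. In saline retinas the one that passed was at 4.79 at 7 d and 4.90 at 24 h, under the lower quartile, whereas INS37217 retinas averaged 7.04 at 7 d and 4.80 at 24 h. Col3a1 changed by 0.63 in INS37217 retinas and -0.99 in saline retinas, a difference of 1.61 (SE 0.23, adjusted p = 0.0015, and 0.087 without the block). Postn, periostin of healing tissue, changed by 1.24 in INS37217 retinas and -0.25 in saline retinas, a difference of 1.48 (SE 0.15, adjusted p = 2.3e-05). In the collagen and scar matrix list 16 of 20 genes rose with INS37217, with a median change of 0.69, against 2 and 0.08 in saline, and 6 genes of the list passed for the difference. Arg1 changed by 0.88 in INS37217 retinas and -1.22 in saline retinas, a difference of 2.10 (SE 0.42, adjusted p = 0.03, and 1 without the block). Serpina3n, of reactive glia, fell less: it changed by -0.57 in INS37217 retinas and -1.80 in saline retinas, a difference of 1.23 (SE 0.15, adjusted p = 0.00031, and 0.094 without the block).

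Some interferon-induced genes fell further with INS37217, and those named here did so from higher means at 24 h. The median of the list was -1.53 with INS37217 and -0.82 in saline, and 7 of 27 members passed for the difference. Slfn4, a schlafen of myeloid cells, changed by -3.81 in INS37217 retinas and -1.21 in saline retinas, a difference of -2.60 (SE 0.21, adjusted p = 7.7e-07). Its mean at 24 h was 7.82 with INS37217 and 5.07 in saline, and at 7 d 4.01 with INS37217 and 3.86 in saline. Both saline means were under the lower quartile, so the size of its saline change is approximate. Oasl2 changed by -2.64 in INS37217 retinas and -1.42 in saline retinas, a difference of -1.22 (SE 0.16, adjusted p = 4e-04). S100a9 changed by -3.69 in INS37217 retinas and -2.26 in saline retinas, a difference of -1.43 (SE 0.30, adjusted p = 0.047, and 0.93 without the block), and Lcn2 changed by -2.54 in INS37217 retinas and -1.83 in saline retinas, a difference of -0.70 (SE 0.15, adjusted p = 0.047, and 0.45 without the block).

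**Figure D4:**
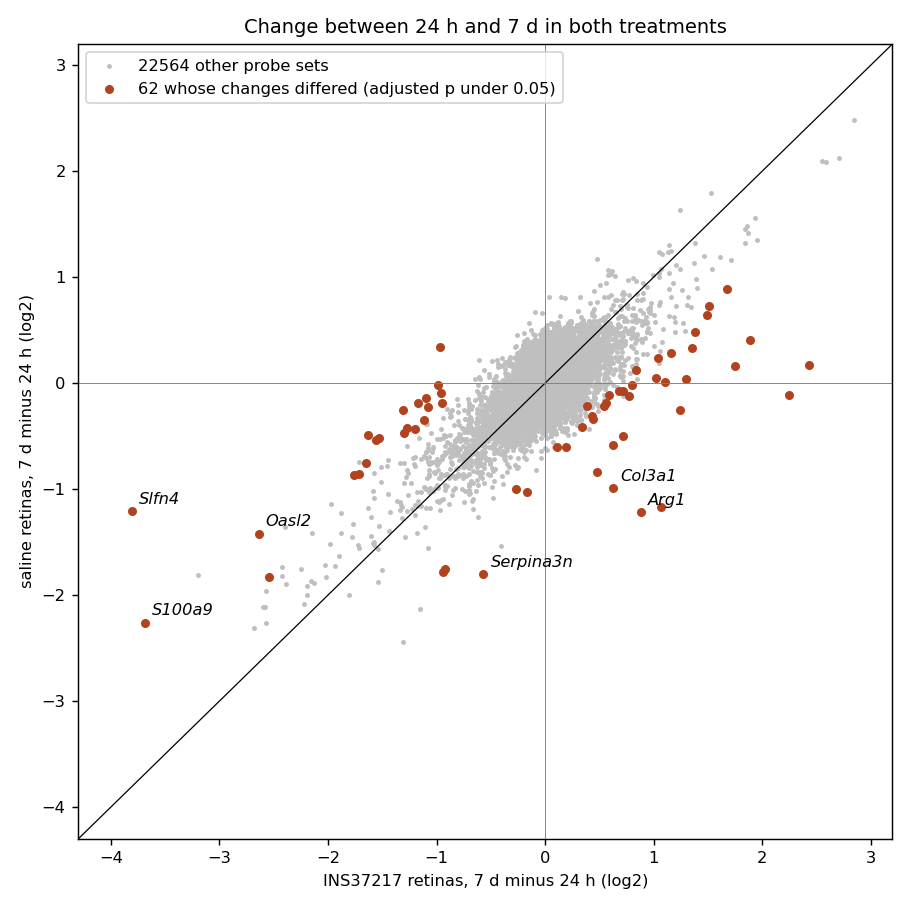
Change between 24 h and 7 d of every probe set in INS37217 retinas (horizontal axis) and in saline retinas (vertical axis), in log2, with the line of equal change. Grey points are the 22564 probe sets whose changes did not pass for a difference, and red points the 62 that did, with Slfn4, Oasl2 and S100a9 left of the line and Col3a1, Arg1 and Serpina3n right of it.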

How the data were processed

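Gene expression was measured on 18 Affymetrix mouse arrays, 3 for each of 6 groups, and saline at 7 d and at 24 h is compared here. Per the submitters' processing notes, the authors deposited log2 values computed by RMA, 1 per probe set. The RMA version and settings, and what a replicate number stands for, are not given in the labels or notes used here. The reported results use the values as deposited. Of 22690 probe sets, 64 Affymetrix controls were left out and 22626 tested. Groups came from the sample titles.

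The fit used R 4.3.3 with limma 3.58.1 (functions lmFit and eBayes) and took in all 18 arrays, each group having its own mean and the replicate number entering as a fixed block, and p-values were adjusted by Benjamini-Hochberg over the 22626 probe sets. Every adjusted p in the text comes from that fit or, where stated, from the same fit without the block. The residual degrees of freedom were 10 and the prior ones 10.5 (12 and 3.3 without the block). The block rests on the values. With group means removed, the 45 pairs of arrays of different groups with the same number correlated at 0.426 to 0.921. Number 1 with 2 or 3 correlated at -0.847 to -0.501, and 2 with 3 at 0.363 to 0.725. The values thus set replicate 1 apart, while replicates 2 and 3 were much less distinct from each other. The script was tested on simulated data with known changes. These data kept the observed replicate effects, so they cannot show whether the block is right. With the block 56.7% of changes of 0.5 and 100% of changes of 1 were found, and 10 of 181 calls were false. Without the block 11.9% and 70.1% were found. Precision is limited by the number of arrays.

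The platform's annotation table named 12393 genes. It gave 1 gene for 20380 probe sets, more than 1 for 691 and no gene for 1555. A gene was represented by its probe set of highest mean over the 18 arrays. Members and the 48 gene lists were chosen with earlier results of these data known, and no set test was run. Of 985 different genes on the lists 850 were measured, and some genes are on more than 1 list. Genes were named where they were among the 20 largest changes in a direction that passed with groups apart, were members of a list, were among a few genes always given such as Gfap and Prph2, or were among 10 in each direction for the difference between treatments. Largest changes and differences are given on the probe set of largest change where the text says so. Promoter sequences came from RefSeq (GRCm38.p6).

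The alternatives tried were no replicate block, quantile normalization again, equal array medians, brighter probe sets alone, eBayes with trend and robust, the arrays of the groups compared alone, replicates 2 and 3 alone, probe sets averaged by gene, and each array left out.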

Additional observations from a re-analysis of the deposited data

Results flagged for a closer look

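For 16 of the genes named above, the change between 24 h and 7 d differed between INS37217 and saline retinas in the limma test of that difference with the block (adjusted p under 0.05), and 11 of these did not pass without it. Those that passed both ways were Col1a1, Postn, Fn1, Slfn4 and Oasl2. Values are the INS37217 change minus the saline change in log2.

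Differences below 0 came from genes of the acute and interferon responses. They were -2.60 for Slfn4 (-3.81 with INS37217 and -1.21 in saline), -1.43 for S100a9 (-3.69 with INS37217 and -2.26 in saline), -1.22 for Oasl2 (-2.64 with INS37217 and -1.42 in saline), -1.02 for Cfb (-1.56 with INS37217 and -0.54 in saline) and -0.70 for Lcn2 (-2.54 with INS37217 and -1.83 in saline). All 5 fell in both treatments.

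Differences above 0 were led by matrix and contractile genes. They were 2.36 for Col1a1 (2.25 with INS37217 and -0.11 in saline), 1.61 for Col3a1 (0.63 with INS37217 and -0.99 in saline), 1.48 for Postn (1.24 with INS37217 and -0.25 in saline), 1.32 for Tagln (0.48 with INS37217 and -0.84 in saline), 1.21 for Fn1 (0.63 with INS37217 and -0.58 in saline) and 0.78 for Thbs1 (1.51 with INS37217 and 0.73 in saline). Thbs1, Col1a1 and Arr3 are given on the probe set with the clearest difference, which is not their brightest one. On the brightest, the differences were 0.57 for Thbs1 (adjusted p = 0.15), 0.53 for Col1a1 (adjusted p = 0.64) and 0.31 for Arr3 (adjusted p = 0.83), and none passed. Among macrophage and glial genes the differences were 2.10 for Arg1 (0.88 with INS37217 and -1.22 in saline), 1.23 for Serpina3n (-0.57 with INS37217 and -1.80 in saline) and 0.71 for Gpnmb (0.11 with INS37217 and -0.60 in saline). The remaining ones were 0.87 for Alas2 (-0.17 with INS37217 and -1.03 in saline) and 0.89 for Arr3 (0.77 with INS37217 and -0.12 in saline). What produced these differences was not tested.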

How the results depend on the processing

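The count of probe sets that passed depended most on the replicate block. Without the replicate block 297 passed in place of 1668 (76 higher and 221 lower in place of 615 and 1053), and the difference between treatments passed for 9 in place of 62. Calls of at least 2-fold moved less, at 121 without the block (27 higher and 94 lower) in place of 141. No paired origin of equal numbers is given in the sources, so the block result rests on the correlation of the arrays. In those correlations replicate 1 stood apart from 2 and 3. With the 6 compared arrays alone 1090 passed, 385 of them higher. With replicates 2 and 3 alone 694 were lower. With probe sets averaged by gene, which leaves fewer features to test, 678 were lower, 79 changed at least 2-fold in place of 141 (55 of them lower, in place of 105), and 35 differed between treatments. With the brighter probe sets alone, which are fewer, 31 differed. Quantile normalization again, equal medians and eBayes with trend and robust left each count within 1.5 times. With single arrays left out, 963 to 1629 passed, 347 to 552 higher and 616 to 1096 lower, and 134 to 148 changed at least 2-fold (28 to 42 higher, 92 to 120 lower). The difference passed for 27 to 68. The cause of these shifts was not tested.

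Of 146 named genes that passed, 64 did not without the block, 13 with the 6 arrays alone and 17 with replicates 2 and 3 alone, and none changed sign in any alternative run. Single omissions ended the call of 35 in at least 1 case, 12 of them in 4 or more: Cdhr1, Calb1, Cfb, Crygd, Dcn, Gnb3, Ikbkb, Mcl1, Mcm4, Mertk, Rorb and Tmem119. Those that lost it without 1 particular array were Cx3cr1, Ebp and Mcm7 (saline 7 d replicate 1), Tyr (7 d replicate 2), Hmox1, Neurod1 and Psma3 (24 h replicate 1) and Mak (24 h replicate 3). Without saline 7 d replicate 2, 17 interferon-induced, 18 reactive glia and 7 class I genes were lower, and 14 microglia, 8 Mueller glia and 5 cone genes higher.

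Some genes that did not pass, with changes between -0.22 (Prph2) and 0.06 (Il6 and P2ry2), changed sign. With replicates 2 and 3 alone Cd68 was at 0.07 and Prph2 at 0.01. After quantile normalization Itgam was at -0.06, Nes at 0.06 (0.09 as the mean of its probe sets) and P2ry2 at -0.01. With single arrays left out, Cd68 ran from -0.22 to 0.09, Il6 from -0.05 to 0.27, Itgam from -0.09 to 0.08, Lif from -0.18 to 0.02, Nes from -0.25 to 0.14, P2ry2 from -0.01 to 0.12 and Ptprc from -0.10 to 0.12. Probe sets near the background of the arrays, such as P2ry12 at 24 h and S100a8 at 7 d, give folds that are approximate.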
